A study of Mus musculus with 5 samples.

Results

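The serum amyloid A genes Saa1, Saa2, Saa3 and Saa4 were followed in the colon of HNF4 null and control mouse fetuses. Every array feature (probe set) annotated to 1 of these 4 symbols alone was taken, which gave 6 probe sets of the 22626 tested, for 4 of 12393 named genes. 0 probe sets carried an Saa symbol together with another gene. The genes were chosen by their measured differences in this comparison, in which Saa1 and Saa2 were among the most negative, so their differences between genotypes are a description and carry no test here.

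The study measured total RNA of whole colon at stage E18.5 on 5 arrays. The HNF4 null group held 3 arrays, named null_59, null_60 and null_426, from fetuses of genotype HNF4LoxP/LoxP with FoxA3Cre. The control group held 2 arrays, CONTROL_406 and CONTROL_421, of genotype HNF4LoxP/+ with FoxA3Cre. Both groups therefore carried Cre and at least 1 floxed allele, and the controls were heterozygous rather than wild type. The transgene is named for Foxa3, a gene of the gut endoderm, which gives rise to the epithelium, and the other layers of the gut wall were in the same RNA. The labels do not say whether the fetuses were littermates, so litter could not be taken into account. The p-values set the difference between the groups against the spread within them in these 5 samples.

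Serum amyloid A proteins are small apolipoproteins that ride on high-density lipoprotein and also bind retinol. In mice, Saa1 and Saa2 are the classical acute-phase genes of the liver, driven by interleukin 1, interleukin 6 and tumour necrosis factor through NF-kB, STAT3 and C/EBP factors, and they are also made by the intestinal epithelium, where microbes and interleukin 22 raise them. Saa3 is expressed outside the liver, in macrophages, fat and epithelia, and Saa4 is the constitutive member. The fetal gut has not yet met the microbes that raise these genes after birth.

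The 4 genes lie together on mouse chromosome 7 in the order Saa3, Saa4, Saa1 and Saa2, with a pseudogene (Saa-ps) between Saa4 and Saa1 in the RefSeq annotation. Saa1 and Saa2 stand head to head on opposite strands, and their upstream sequences are near copies of each other. The 250 bases before each gene's start are shown because the members of the near-identical pair differed most between genotypes and Saa3 and Saa4 lay close to 0. They are from RefSeq (GRCm38.p6), 5′ to 3′ on the gene's own strand, and all 4 genes matched. The capitals mark matches to a C/EBP motif (TTGCNNAA) or an NF-kB motif (GG, any 4 letters, then TTCC) on either strand.
Saa1, chr7:46742981-46743230, minus strand: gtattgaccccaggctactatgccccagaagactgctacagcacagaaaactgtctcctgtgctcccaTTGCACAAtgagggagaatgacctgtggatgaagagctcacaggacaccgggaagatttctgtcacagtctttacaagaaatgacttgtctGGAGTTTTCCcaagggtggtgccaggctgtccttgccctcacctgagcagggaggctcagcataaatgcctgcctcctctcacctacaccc
Saa2, chr7:46751583-46751832, plus strand: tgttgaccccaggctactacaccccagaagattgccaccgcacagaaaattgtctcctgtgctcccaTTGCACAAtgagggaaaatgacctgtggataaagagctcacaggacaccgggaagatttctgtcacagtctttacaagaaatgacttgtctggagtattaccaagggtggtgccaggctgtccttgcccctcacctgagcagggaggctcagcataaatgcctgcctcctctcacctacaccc
Saa3, chr7:46715677-46715926, minus strand: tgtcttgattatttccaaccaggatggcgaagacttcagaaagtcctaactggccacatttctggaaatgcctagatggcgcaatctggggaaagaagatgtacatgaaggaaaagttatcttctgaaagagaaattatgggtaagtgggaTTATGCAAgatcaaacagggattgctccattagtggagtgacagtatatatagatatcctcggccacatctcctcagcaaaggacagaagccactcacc
Saa4, chr7:46732604-46732853, minus strand: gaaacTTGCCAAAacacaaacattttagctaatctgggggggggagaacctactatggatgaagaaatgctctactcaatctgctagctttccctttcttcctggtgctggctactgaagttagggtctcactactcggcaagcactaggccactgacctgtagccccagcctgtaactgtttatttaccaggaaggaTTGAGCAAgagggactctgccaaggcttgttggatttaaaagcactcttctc

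Aligned end to end, the Saa1 and Saa2 upstream sequences were identical at 238 of 251 positions (94.8%). The other 5 pairs shared between 46.8% and 52.4% of aligned positions. The Saa1 and Saa2 windows each held 1 C/EBP match, with the same letters (TTGCACAA), which began 182 bases before the start in Saa1 and 183 bases before it in Saa2. Saa3 also had 1 C/EBP match and Saa4 had 2, so this motif did not separate the pair from the others, and 9.56% of 32851 promoter windows of the same length held it. The NF-kB motif was matched once, in Saa1 (GGAGTTTTCC, beginning 91 bases before the start), and 15.2% of all windows held it. The 3 further motifs had 0 matches in the 4 windows. These were a STAT motif (TTCNNNGAA, in 7.02% of windows), an HNF4 motif (CAAAGNCCA, in 1.70%) and a TATA motif (TATAAA, in 12.4%). None of the motifs searched overlapped another in these windows, and they were chosen with the sequences in view.

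Saa1 was read by 2 probe sets. Probe set 1450788_at had deposited intensities of 149, 58.5 and 56.2 in null_59, null_60 and null_426, against 834 and 955 in CONTROL_406 and CONTROL_421. Intensity is the brightness of the probe set on a linear scale, and the medians of all probe sets lay between 123.7 and 135.2 in the 5 arrays. In the control colons Saa1 was thus 6.33 and 7.72 times the array's median, while in null_60 and null_426 it was 0.444 and 0.416 times it. Every null value lay below both control values, and the lower control was 5.59 times the highest null. The 3 null arrays averaged 87.9 ± 53.0 (SD), against 894 ± 85.5 (SD) in the 2 control arrays.

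The second Saa1 probe set, 1419075_s_at, had intensities of 152, 65.5 and 52.6 in the null arrays, against 733 and 850 in the control arrays. It gave the same order of the arrays as the first. The log2 differences between null and control colons were -3.22 for 1450788_at and -3.04 for 1419075_s_at. They are on the scale log2(intensity + 16) after quantile normalisation, which understates the change where intensities are low. The suffix _s_at marks a probe set that the array maker expected to hybridise with transcripts of several genes. Its accession in the platform annotation belongs to Saa2 in RefSeq, although the annotated symbol is Saa1.

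Saa2 had 1 probe set, 1449326_x_at, with intensities of 85.2, 48.6 and 51.9 in the null arrays, against 395 and 488 in the control arrays. The null and control values did not overlap here either, and the log2 difference was -2.59. The 3 null arrays averaged 61.9 ± 20.2 (SD), against 442 ± 65.8 (SD) in the 2 control arrays. The suffix _x_at marks probes that can cross-hybridise with other sequences. RefSeq lists Saa2 as an older name of Saa1 and Saa1 as an older name of Saa2, and the paralogs are near identical, so the 3 probe sets are not 3 separate measurements and do not tell the genes apart with certainty.

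**Figure D1:**
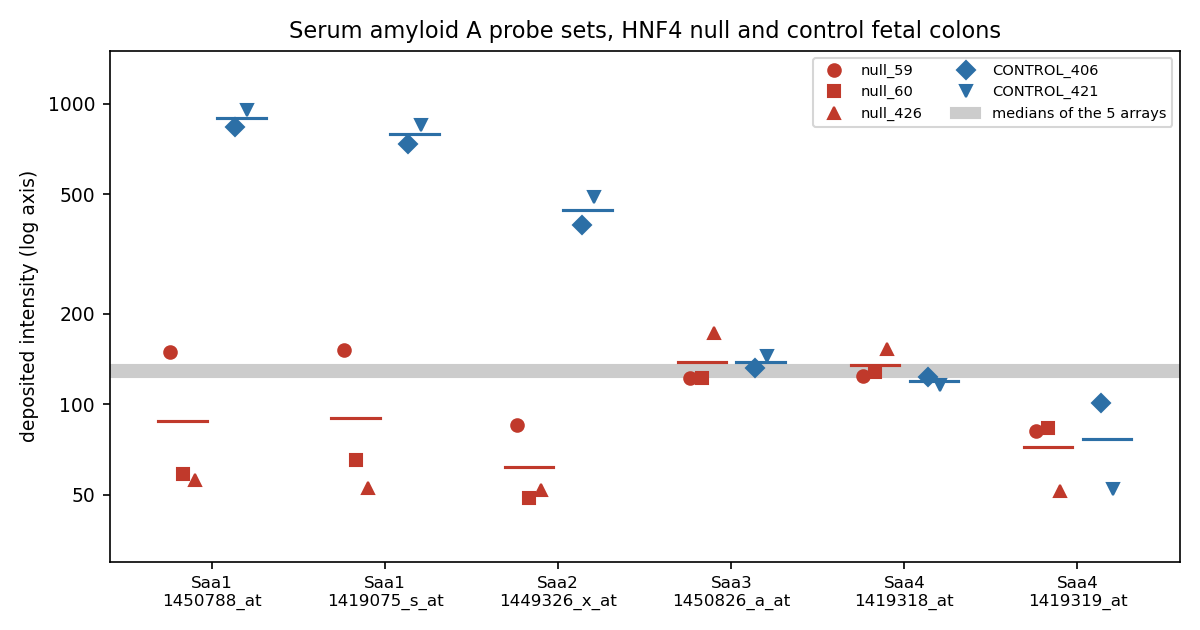
Deposited intensity (log axis) of the 6 serum amyloid A probe sets, with 1 point per array, HNF4 null in red and control in blue, a bar at each group's mean and a grey band over the medians of the 5 arrays. Saa1 and Saa2 read between 395 and 955 in the control arrays and between 48.6 and 152 in the null arrays, while the groups of Saa3 and of Saa4 1419319_at overlap.

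Within the null group, null_59 stood apart in Saa1 and Saa2. By 1450788_at it read 2.55 times null_60 and 2.65 times null_426, by 1419075_s_at 2.32 and 2.89 times, and by the Saa2 probe set 1.75 and 1.64 times. It was the only null array in which Saa1 passed the array's median. The control arrays lay closer together, with CONTROL_421 at 1.15, 1.16 and 1.24 times CONTROL_406 in the same 3 probe sets. The pooled within-group SD on the log2 scale was 0.59 and 0.60 for the Saa1 probe sets and 0.34 for Saa2.

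Saa3, read by 1450826_a_at, had intensities of 122, 122 and 172 in the null arrays, against 132 and 145 in the control arrays. The groups overlapped, and the log2 difference of -0.04 was smaller than the within-group SD of 0.22. Saa3 stayed near the array medians in every array (0.926 to 1.27 times the median). Here null_59 did not stand above the other null arrays as it did in Saa1 and Saa2.

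Saa4 had 2 probe sets. 1419318_at read 125, 128 and 153 in the null arrays, against 124 and 116 in the control arrays. The null values lay just above both control values, as in 12.0% of all probe sets, and the log2 difference was 0.11. 1419319_at read 81.6, 83.5 and 51.5 in the null arrays, against 101 and 52.2 in the control arrays. Here the groups overlapped, and the log2 difference of -0.12 lay within the SD of 0.41.

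By limma's moderated test over all probe sets, 28 of 22626 (0.124%) had an adjusted p under 0.05, of which 24 (0.106%) were lower in null colons. The 3 probe sets of Saa1 and Saa2 were among these 24 and the 3 of Saa3 and Saa4 were not, a count fixed by how the genes were chosen. These calls depended on the arrays and the pseudocount. The limma adjusted p of 1450788_at and 1419075_s_at was 0.0929 and 0.119 without null_60, 0.0579 and 0.0737 without CONTROL_421, and 0.113 and 0.155 with a pseudocount of 1. For Saa2 the limma adjusted p was 0.0674 without null_60. Ranked by log2 difference from the most negative, Saa1 took places 1 and 2 and Saa2 took place 7 of 22626. The next 3 places of the family were 6309 and 14981 for Saa4 and 9072 for Saa3. All null values lay below both control values in 11.6% of probe sets, so lack of overlap alone is common with 3 and 2 arrays.

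**Figure D2:**
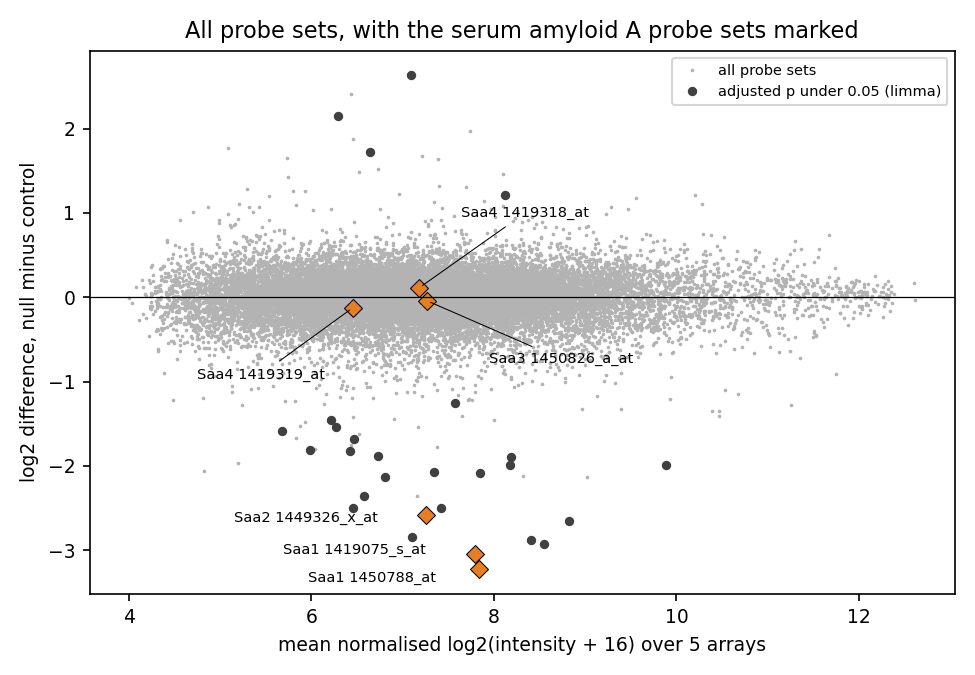
Log2 difference (null minus control) against the mean normalised log2(intensity + 16) over the 5 arrays for 22626 probe sets in grey, those with an adjusted p under 0.05 in black and the serum amyloid A probe sets as orange diamonds. The 2 Saa1 probe sets are the lowest points of the plot at -3.22 and -3.04, and Saa3 and Saa4 sit at the centre of the cloud.

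The label HNF4 was checked at Hnf4a, which encodes HNF4 alpha, a nuclear receptor of gut and liver epithelium. Its brightest probe set, 1427001_s_at, averaged 706 ± 50.1 in the 3 null arrays (SD), against 968 ± 32.6 in the 2 control arrays (SD), a log2 difference of -0.35 (limma adjusted p = 0.719). The differences of its other 3 probe sets were -0.55 (1427000_at), 0.14 (1421983_s_at) and 0.19 (1450447_at), with adjusted p from 0.603 to 0.902. Neither the HNF4 gene meant nor its floxed exons are named in the labels, and a probe set outside that part checks nothing. RNA quality was read from the Gapdh control probe sets, whose 3′ signal over 5′ signal was between 0.794 and 0.895 in the null arrays, and it was 0.767 in CONTROL_406 and 1.47 in CONTROL_421. The same ratio for actin ranked the arrays differently, with 1.49, 1.83 and 1.55 in null_59, null_60 and null_426, against 1.44 and 1.76 in CONTROL_406 and CONTROL_421. Saa1 and Saa2 were high in both control arrays, and the part of RNA quality in their values was not tested.

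The genes around serum amyloid A were taken as 15 lists of 246 genes in all, of which 214 were measured. A gene was represented by its brightest probe set, and by that probe set 17 of 12393 genes (0.137%) had an adjusted p under 0.05, 15 of them (0.121%) lower in null colons. At an unadjusted p under 0.05, 4.24% of all genes were lower and 2.60% higher in null colons. All null arrays lay below both control arrays in 11.8% of genes and above them in 12.6%. The median log2 difference over all genes was 0.02.

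**Figure D3:**
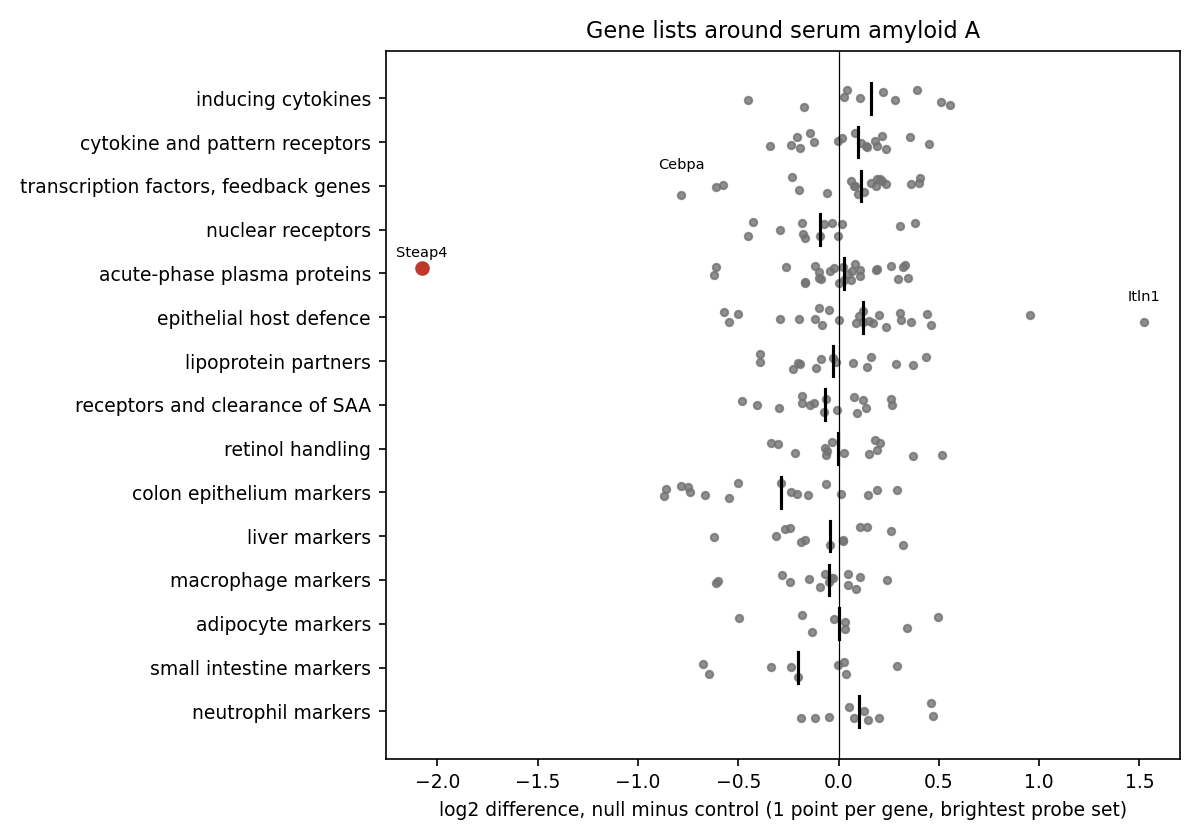
Log2 difference (null minus control) of each measured gene in 15 lists, 1 point per gene by its brightest probe set, with a black bar at each list's median and a red point for an adjusted p under 0.05. Steap4 at -2.08 is the single red point, and the bar of the colon epithelium markers lies lowest at -0.29.

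The C/EBP family, basic leucine zipper factors that bind the Saa promoters, supplied the 3 smallest p-values among 20 measured transcription factors and feedback genes. Another measured member, Cebpg, differed by 0.10 (limma adjusted p = 0.944) by its brightest probe set and by -0.18 and -0.24 by the other probe sets. Cebpa, the family member of differentiated liver and fat cells, read 226, 279 and 192 in the null arrays, against 386 and 434 in the control arrays. The groups did not overlap, and the log2 difference was -0.78 ± 0.19 (SE, limma adjusted p = 0.362). Cebpd, an acute-phase inducer, read 118, 99.2 and 83.7 in the null arrays, against 142 and 168 in the control arrays, a difference of -0.61 ± 0.20 (SE, limma adjusted p = 0.591).

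Cebpb, which mediates the response to interleukin 6, read 152, 151 and 104 in the null arrays, against 178 and 230 in the control arrays, a difference of -0.58 ± 0.22 (SE, limma adjusted p = 0.652). None of the 3 passed the threshold over all probe sets. The dimmer probe sets of Cebpd and Cebpb differed by -0.50 and -0.43. In all 3 genes null_426 was the lowest array, and null_59 was the highest null array in Cebpd, close to null_60 in Cebpb and below null_60 in Cebpa. Of the 20 factors and feedback genes, 0 passed limma's threshold and 3 were below the unadjusted p of 0.05, all with negative differences (15.0% of the list against 4.24% of all genes). The list's median was 0.11. In the other lists the share lower at that level ran from 0.00% to 47.1%, with 15.4% in the nuclear receptors read below.

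Factors of the interleukin 6 and NF-kB routes were read in the same list. Stat3, the transducer of interleukin 6 and 22 signals, averaged 266 ± 21.0 in the 3 null arrays (SD), against 242 ± 5.46 in the 2 control arrays (SD) by its brightest probe set, a log2 difference of 0.13 (limma adjusted p = 0.877). Its other probe sets differed by -0.22 and 0.16. Rela, the transactivating subunit of NF-kB, averaged 273 ± 51.9 in the 3 null arrays (SD), against 255 ± 16.7 in the 2 control arrays (SD), a difference of 0.08 (limma adjusted p = 0.934). Socs3, a feedback inhibitor that STAT3 induces, differed by 0.19 (limma adjusted p = 0.829) by its brightest probe set and by -0.58 and -0.56 by its 2 dimmer ones, so its probe sets disagreed in sign. Bcl3 and Rel, of the NF-kB route, differed by 0.41 and 0.40 (limma adjusted p = 0.739 and 0.780). Nfkbia, the NF-kB inhibitor, differed by 0.21 by its brightest probe set (limma adjusted p = 0.856) and by 0.46 by 1448306_at (limma adjusted p = 0.695).

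Among the cytokines that induce Saa genes, 10 of 13 were measured and 0 passed limma's threshold, with 1 at an unadjusted p under 0.05. That gene was Il6, which read 48.0, 44.6 and 54.0 in the null arrays, against 22.7 and 28.0 in the control arrays. All of these lie far under the array medians, and the difference was 0.56 ± 0.17 (SE, limma adjusted p = 0.578). Il17a and Il11 differed by 0.51 and -0.45 (limma adjusted p = 0.715 and 0.761). The list's median was 0.16.

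Of the receptors and their adaptors, 18 of 19 were measured. By limma 0 passed the threshold and 0 had an unadjusted p under 0.05. Il1r1, the signalling receptor of interleukin 1, averaged 94.8 ± 3.16 in the 3 null arrays (SD), against 66.5 ± 3.58 in the 2 control arrays (SD), a difference of 0.36 (limma adjusted p = 0.702). Il6st, the signalling chain shared by the interleukin 6 family, differed by 0.21, and Il6ra, its ligand-binding partner, by -0.24 by its brighter probe set and 0.24 by the other. Tnfrsf1a, the main receptor of tumour necrosis factor, differed by 0.11. Tlr4, the receptor for bacterial lipopolysaccharide, and its adaptor gene Myd88 differed by -0.12 and -0.14. The oncostatin M receptor gene Osmr differed by 0.45, and Il10rb, the second chain of the interleukin 22 receptor, by -0.34. The limma adjusted p of these 8 genes ran from 0.702 to 0.905.

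Nuclear receptors with known links to Saa genes were all measured (13 of 13), with 0 past limma's threshold. Rara, a retinoic acid receptor, and Esrra, an orphan receptor of energy metabolism, were below the unadjusted p of 0.05, at -0.45 and -0.43 (limma adjusted p = 0.685 and 0.695). They were 15.4% of the list, against 4.24% of all genes lower at that level. Rarb, a retinoic acid receptor that is itself induced by retinoic acid, differed by 0.38 (limma adjusted p = 0.722).

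Steap4 was the only acute-phase list member of 28 measured that passed limma's threshold, and it was lower in null colons. It encodes a metalloreductase of the plasma membrane that inflammatory cytokines induce, and its fall in this comparison was known when the list was made. By 1460197_a_at it read 125, 120 and 105 in the null arrays, against 490 and 599 in the control arrays, which is 4.22-fold lower (limma adjusted p = 0.00693). A second probe set, 1425829_a_at, read 161, 108 and 127 in the null arrays, against 335 and 159 in the control arrays, and its groups overlapped (1.71-fold lower, limma adjusted p = 0.617).

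The other 27 acute-phase genes did not pass. Hp, the haemoglobin scavenger haptoglobin, averaged 126 ± 14.8 in the 3 null arrays (SD), against 121 ± 11.9 in the 2 control arrays (SD) (limma adjusted p = 0.999). Lcn2, the iron-siderophore trap lipocalin 2, averaged 91.9 ± 14.8 in the 3 null arrays (SD), against 96.0 ± 2.27 in the 2 control arrays (SD), a log2 difference of -0.12 (limma adjusted p = 0.894). Orm1, the plasma glycoprotein orosomucoid, and Lbp, the lipopolysaccharide-binding protein, differed by 0.19 and 0.30 (limma adjusted p = 0.859 and 0.788). Cd14, a coreceptor for lipopolysaccharide, differed by -0.61, and Hamp, the iron hormone hepcidin, by 0.33 (limma adjusted p = 0.642 and 0.743). At an unadjusted p under 0.05 there were 2 members, Steap4 and Cd14, both lower in null (7.14% of the list against 4.24% of all genes). The list's median was 0.02, close to that of all genes.

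Of 25 measured genes of epithelial host defence, 0 passed limma's threshold and 4 were below the unadjusted p of 0.05, 2 in each direction. Itln1, the carbohydrate-binding intelectin of secretory cells, read 358, 81.9 and 103 in the null arrays, against 25.8 and 55.8 in the control arrays. All null arrays lay above both control arrays, as in 12.6% of all genes, and null_59 was highest. The log2 difference was 1.52 ± 0.52 (SE, limma adjusted p = 0.607). Without null_59 the difference was 0.90, and it reached 1.96 without CONTROL_421. S100a8, a calprotectin subunit, differed by 0.46, and Reg4, a lectin of secretory cells, by -0.55 (limma adjusted p = 0.642 and 0.643).

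Reg3b, an epithelial antimicrobial lectin, read 133, 657 and 215 in the null arrays, against 353 and 309 in the control arrays. The null arrays spread on both sides of the controls, with null_60 highest and null_59 lowest, which is not their order in Saa1. Its related gene Reg3g differed by 0.24 and the immunoglobulin transporter gene Pigr by -0.50 (limma adjusted p = 0.814 and 0.759). In Pigr null_59 was the highest null array, with 222 against 118 and 119 in the other null arrays, and 184 and 241 in the control arrays. A dimmer Pigr probe set differed by only -0.02. It read 160, 111 and 123 in null_59, null_60 and null_426, against 131 and 125 in the control arrays. The list's median was 0.12.

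The proteins that carry, bind or clear serum amyloid A did not pass either. Of 15 measured lipoprotein partners, 0 passed limma's threshold and 1 was below the unadjusted p of 0.05, the apolipoprotein gene Apom (0.44, limma adjusted p = 0.643). Apoa1, the main protein of high-density lipoprotein, which serum amyloid A displaces, differed by 0.16 (limma adjusted p = 0.866) by its brightest probe set. Its other probe sets ran from -0.56 for the dimmest to 0.25. The lecithin-cholesterol acyltransferase gene Lcat differed by 0.29, and the clusterin gene Clu by 0.37 by its brightest probe set. Their limma adjusted p were 0.771 and 0.728. The other Clu probe sets differed by 0.15, -0.31 and -0.48, so its probe sets disagreed in sign. The list's median was -0.03.

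Of 16 measured receptors and clearance genes, 0 passed limma's threshold and 2 were below the unadjusted p of 0.05. These were the cystatin gene Cst3 (-0.48) and the lysosomal cathepsin gene Ctsb (-0.41), with limma adjusted p of 0.630 and 0.699, and the perlecan gene Hspg2 differed by 0.27 (0.767). Scarb1, a receptor for high-density lipoprotein and serum amyloid A, differed by -0.06 (limma adjusted p = 0.956). The list's median was -0.07. Retinol handling genes, 14 of 17 measured, had 0 past the limma threshold, and 0 had an unadjusted p under 0.05, with a median of -0.0038. The leading members were the retinol dehydrogenase gene Rdh7 (0.51), the retinoic acid synthase gene Aldh1a2 (0.37) and the enterocyte retinol-binding protein gene Rbp2 (-0.34), with limma adjusted p from 0.722 to 0.766.

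The tissue label was checked against colon epithelium markers. Of 17 measured, 14 lay above the median in every array, while Hoxa13 and Hoxd13 lay below it in every array. The lectin gene Lgals4 read 4784 in null and 4880 in control colons on average. Tff3, a goblet cell peptide, averaged 4918 in null and 5192 in control colons, and the keratin genes Krt8 and Krt19 differed by -0.15 and 0.14. 0 markers passed limma's threshold, but 8 of 17 (47.1%) were below the unadjusted p of 0.05, all with negative differences, and 10 had every null array below both control arrays, against 11.8% of all genes.

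Epcam, the epithelial adhesion molecule, read 1572, 1619 and 1259 in the null arrays, against 2342 and 2565 in the control arrays, a log2 difference of -0.66 ± 0.17 (SE, limma adjusted p = 0.387). Krt20, a keratin of mature surface cells, and Vil1, the microvillus protein villin, differed by -0.87 and -0.74 (limma adjusted p = 0.378 and 0.493). The summed intensity of the 17 markers was 21695 to 24921 in the null arrays, against 25463 to 27902 in the control arrays. In these bulk samples, fewer cells of a type and less RNA per cell cannot be told apart. Saa1 was 9.34-fold lower and Epcam 1.58-fold lower, and null_59, the highest null array in Saa1, was not the highest in Epcam. Among the listed markers null_59 was the highest null array in Cdx2, Tff3, Hoxa13 and Hoxb13, and not in the others. The part of the epithelial markers in the Saa1 and Saa2 values was not tested.

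Markers of liver, where Saa1 and Saa2 are best known, were read in the same arrays. The sum of 13 measured liver markers was 1222 to 1545 in the null arrays, against 1321 to 1376 in the control arrays, and the ranges overlapped. Alb, plasma albumin, averaged 129 ± 17.4 in the 3 null arrays (SD), against 94.9 ± 1.01 in the 2 control arrays (SD), and Afp, the fetal albumin, averaged 90.1 ± 16.8 in the 3 null arrays (SD), against 119 ± 67.0 in the 2 control arrays (SD). Alb read 94.2 and 95.6 in the control arrays, under their medians, and was not lower in the null arrays (log2 difference 0.32, limma adjusted p = 0.759). Fgg, a fibrinogen chain, read below 0 in null_60 and 8 of the 13 markers were under the median in every array. The thyroxine carrier gene Ttr and the urea cycle gene Cps1 lay above the median in every array and differed by -0.17 and 0.14 by their brightest probe sets (limma adjusted p = 0.860 and 0.883). A dimmer Ttr probe set, 1454608_x_at, read 41.8, 51.2 and 52.6 in the null arrays, against 179 and 85.0 in the control arrays (log2 difference -1.19, limma adjusted p = 0.214). The dimmest, 1455913_x_at, read 18.4, 16.8 and 13.6 in null, against 81.1 and 26.1 in control arrays (log2 difference -1.08, limma adjusted p = 0.432). In both dimmer probe sets every null array was below both control arrays, as in 11.6% of all probe sets. Afp, Fgg and the vitronectin gene Vtn differed by -0.31, -0.62 and -0.27, with limma adjusted p of 0.830, 0.789 and 0.791. The part of liver RNA in the Saa1 and Saa2 values was not tested.

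Other cell types that can make Saa genes were followed in the same way. The 15 macrophage markers summed to 1803 to 2059 in the null arrays, against 2010 to 2216 in the control arrays, with 2 below the unadjusted p of 0.05 (Fcgr3 at -0.60 and Cd14 at -0.61) and Aif1 at 0.24. The 8 measured adipocyte markers summed to 1139 to 1316 in null, against 1203 to 1277 in control colons, with Lpl at -0.50, Adipoq at 0.50 and Retn at 0.34. The 10 measured neutrophil markers summed to 1407 to 1713 in null, against 1368 to 1475 in control colons, with Mpo at 0.47, S100a8 at 0.46 and S100a9 at 0.20. The 9 measured small intestine markers summed to 1137 to 1194 in null, against 1233 to 1377 in control colons, with Slc10a2 at -0.68, Mep1a at -0.64 and Rbp2 at -0.34. By limma 0 members of these 4 lists or of the liver list passed. At an unadjusted p under 0.05, 2 of 15 macrophage, 1 of 8 adipocyte and 2 of 9 small intestine genes were lower in null. The 2 neutrophil genes of 10 at that level were higher, and the liver list had 0 in either direction. Over all genes 4.24% were lower and 2.60% higher. In 4 of the 9 small intestine genes all null arrays lay below both control arrays, against 11.8% of all genes, and in 1 they lay above. No marker of these 4 lists read 0 or below in any array. Their part in the Saa1 and Saa2 values was not tested.

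The genes beside the cluster on chromosome 7 did not share the difference. Of the 10 nearest measured genes on each side, 0 of 20 passed limma's threshold and 0 had an unadjusted p under 0.05. Their log2 differences ran from -0.28 (Myod1) to 0.30 (Kcnj11), with a median of 0.07. Saal1, the nearest neighbour beyond Saa3, averaged 287 ± 63.9 in the 3 null arrays (SD), against 289 ± 15.7 in the 2 control arrays (SD), a difference of -0.01 (limma adjusted p = 0.994). Tph1, the serotonin synthesis gene that follows it, differed by 0.09 (limma adjusted p = 0.915). Beyond Saa2 lay Gtf2h1, a subunit of the general factor TFIIH, at -0.21, and the lactate dehydrogenase gene Ldha, at 0.02, which averaged 3381 ± 367 in the 3 null arrays (SD), against 3423 ± 122 in the 2 control arrays (SD). Their limma adjusted p were 0.835 and 0.983.

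**Figure D4:**
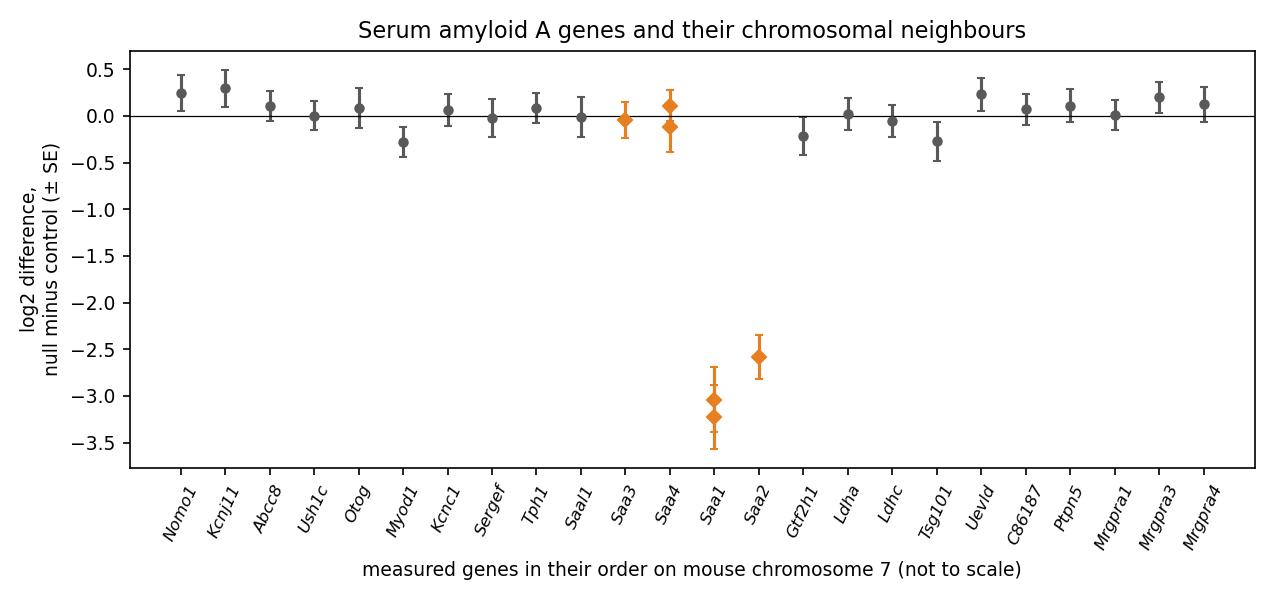
Log2 difference (null minus control, bars are ± SE from limma) of the serum amyloid A probe sets (orange diamonds) and the 10 nearest measured genes on each side (grey) in chromosomal order, evenly spaced rather than to scale. Saa1 and Saa2 lie between -2.59 and -3.22, and the 20 neighbours between -0.28 and 0.30.

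The profile of Saa1 over the 5 arrays was set beside that of every probe set with 1 symbol, by the root mean square difference between log2 values centred on each probe set's own mean. This measure uses the difference between genotypes that chose Saa1, and also the order of the arrays within each group. It is therefore a description over 5 arrays. The other Saa1 probe set was closest at 0.11 and Saa2 followed at 0.38, while Saa3 stood at 1.66 and the Saa4 probe sets at 1.71 and 1.59, near the median of 1.66 over all named probe sets. The 8 closest probe sets outside the family were of 7 genes and ranged from 0.39 to 0.70.

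Nearest was Atp12a, the catalytic subunit of the colonic proton-potassium pump, at 0.39, with intensities of 248, 184 and 78.4 in the null arrays, against 1447 and 1171 in the control arrays. The water channel gene Aqp8 was next at 0.47, with 86.6, 70.0 and 60.02 in null, against 470 and 484 in control arrays. After it came 1 probe set of the C-type lectin gene Clec2h (0.56), then the membrane mucin gene Muc3 (0.60), the sulfotransferase gene Sult1b1 (0.61), Steap4 (0.68), the sulfate transporter gene Slc26a2 (0.69) and a second probe set of Clec2h (0.70). The array null_426 was the lowest null array in all 8, and null_59 was the highest in 5 of the 8. The choice of the 8 by likeness to Saa1 itself favours this order. In Muc3 the null arrays fell apart as in Saa1, with 118 in null_59 and 62.8 and 61.9 in null_60 and null_426, against 293 and 473 in the control arrays.

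**Figure D5:**
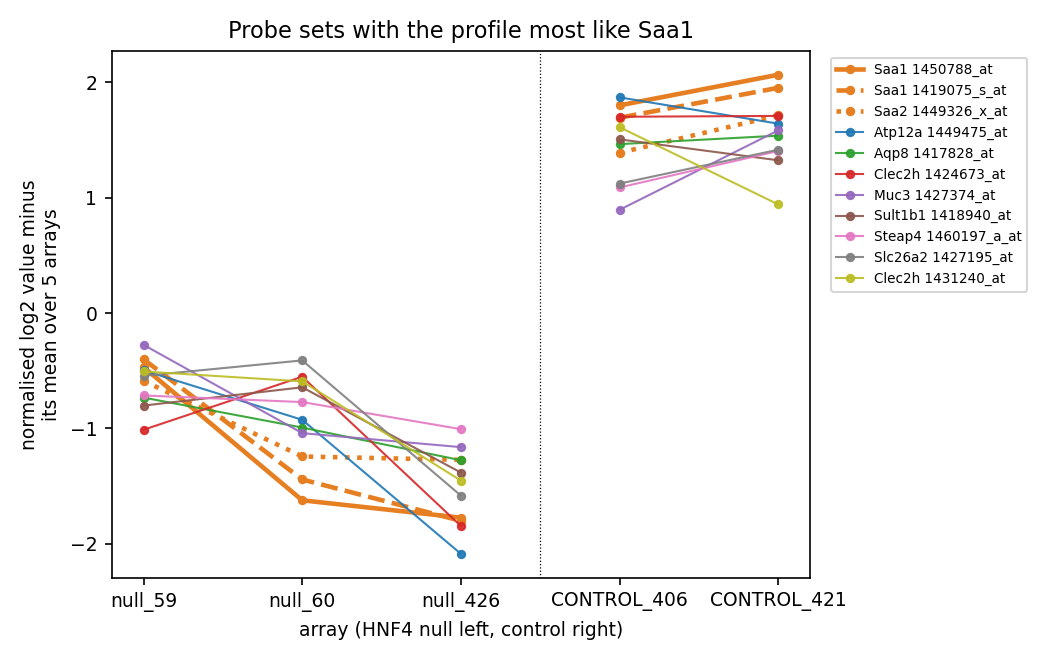
Normalised log2 values, each minus its probe set's mean over 5 arrays, for the Saa1 and Saa2 probe sets (orange) and the 8 probe sets with the most similar profile, with HNF4 null arrays left and control arrays right; lines only join values of 1 probe set within a group. Saa1 spans from -1.78 in null_426 to 2.07 in CONTROL_421, and null_59 is the highest null array in the 3 Saa probe sets and in 5 of the 8 others. The choice of the 8 by likeness over all 5 arrays favours this order.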

How the data were processed

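Total RNA of 5 fetal colons was hybridised to 1 Affymetrix array each, per the labels' protocols. The authors deposited a linear intensity for each probe set on each array. The summarising software, background step and scaling by the authors are not given in the sources used here. Values below 0 (196 in all) were set to 0, log2(intensity + 16) was taken and the arrays were quantile normalised. The array maker's 64 control probe sets were left out and no dim probe sets were removed. HNF4 null was compared with control in limma 3.58.1 (R 4.3.3; a two-sided moderated test without covariates), with Benjamini-Hochberg adjustment over 22626 probe sets and a threshold of 0.05. Precision is limited by having 5 arrays.

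The platform annotation named 20380 probe sets by 1 symbol, 691 by several and 1555 not, and 20351 of the first matched RefSeq (GRCm38.p6) by gene ID, with 0 symbols changed. Promoters were aligned with Biopython 1.88. The script was tested on simulated data of 22626 probe sets. Genes were named by a rule (all Saa and Hnf4a probe sets, a preset set of regulators and acute-phase genes, the 3 smallest p-values and any call of each list, chromosomal neighbours, and the 8 nearest profiles); further colon markers, Cebpg, Bcl3, Rel, Nfkbia, Ttr and Cps1 are named after their values were seen, and of the neighbours the 2 nearest on each side and the extremes. The members, lists and rule were chosen with earlier results of these data known. Alternatives were median centring or no normalisation, pseudocounts of 1 and 64, leaving out dim probe sets, eBayes with an intensity trend (plain and robust), weighted arrays, averaging the probe sets of a gene, and leaving out each array in turn.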

Additional observations from a re-analysis of the deposited data

How the results depend on the processing

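Saa1 and Saa2 kept their direction in every alternative run but not every call. Both Saa1 probe sets missed the adjusted threshold with a pseudocount of 1, without null_60 and without CONTROL_421, and Saa2 missed it without null_60. With 1 array left out, the log2 difference ranged from -3.64 to -3.03 for 1450788_at, from -3.46 to -2.79 for 1419075_s_at and from -2.82 to -2.40 for Saa2, and with a pseudocount of 64 that of Saa2 was -2.01. Saa3 ranged from -0.19 to 0.05 and the Saa4 probe sets from 0.03 to 0.15 and from -0.45 to 0.21 with 1 array left out. Saa4 1419318_at stayed above 0 in these runs, but its 95% interval over all arrays was -0.26 to 0.48. Neither Saa3 nor Saa4 therefore has a settled direction. The count of calls over all probe sets was 45 with array weights, 17 when dim probe sets were left out and 14 with a pseudocount of 1, and 8 to 104 with 1 array left out (8 without null_60, all lower in null; 18 without CONTROL_421, 13 of them lower; and 104 without CONTROL_406, with 47 lower and 57 higher, so the balance of directions turned). With any 1 array left out, the acute-phase list had 1 call and the other 14 lists and the neighbours 0. Array weights gave Hp -0.090, Rela -0.050 and Scarb1 0.015. Ldha was -0.069 with median centring and -0.023 as deposited. With 1 array left out, these uncalled genes crossed 0: Afp (-0.86 to 0.24), Hp (-0.046 to 0.079), Il6st (-0.012 to 0.44), Myd88 (-0.30 to 0.036), Orm1 (-0.15 to 0.53), Reg3b (-0.89 to 0.16), Reg3g (-0.022 to 0.49), Rela (-0.040 to 0.19), Scarb1 (-0.17 to 0.11), Tnfrsf1a (-0.12 to 0.34), Saal1 (-0.20 to 0.10), Ldha (-0.062 to 0.078) and Hnf4a 1421983_s_at (-0.20 to 0.47). The cause was not tested. With 1 control array left, it is assumed to vary like the null arrays. No paired analysis was possible because the array numbers are embryo numbers and the labels do not say which fetuses were littermates.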

Other observations

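Retnlb, the goblet cell peptide RELM beta, fell into 2 levels that did not follow the genotype. It read -12.5, 2517 and 2067 in null_59, null_60 and null_426, against 3320 and -13.8 in CONTROL_406 and CONTROL_421. It was chosen after its values were seen, and by brightest probe sets it is 1 of 2 genes of the lists with a value of 0 or below in an array, the other being Fgg. The array null_59, at the low level of Retnlb, had the highest null values of Saa1 and of Itln1, while CONTROL_421, also at the low level, had Saa1 at 955.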
